A study of Mus musculus with 12 samples.

Results

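Markers of the CA2 and CA3 pyramidal neurons of the hippocampus, *Rgs14*, *Amigo2*, *Cacng5*, *Bok*, *Iyd*, *Cpne4* and *Spock1*, were followed through 12 hippocampal RNA libraries from mice with and without *Dek*, which encodes a chromatin protein. These 7 genes were taken by symbol, through their Ensembl identifiers and the GENCODE M21 annotation, from the 26409 genes of the deposited table. Each library came from the microdissected hippocampus of an adult mouse that had been through behavioural testing, and poly-A RNA was turned into stranded libraries that were read from both ends. The 4 groups of 3 libraries were female WT, male WT, female *Dek* cKO and male *Dek* cKO, so each genotype had 6 libraries. The *Dek* cKO mice carried a germline deletion of *Dek* exons 3 and 4, made on the C57Bl/6 background with loxP sites and CMV-Cre, so that *Dek* was lost from every cell of the animal and throughout development, not from CA2 or CA3 alone. The library names of the female WT mice begin with C57 and those of all other mice with CMV. Within WT the name and the sex therefore cannot be told apart, nor can the name and the genotype within females.

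CA3 pyramidal neurons receive the mossy fibres of the dentate gyrus and send the Schaffer collaterals to CA1, and they excite each other through recurrent connections. CA2 is a small field between CA3 and CA1, known for its resistance to long-term potentiation at the Schaffer collateral synapses and for its part in social memory. *Rgs14*, a regulator of G protein signalling that holds back synaptic plasticity in CA2, and *Amigo2*, a cell adhesion protein with leucine-rich repeats and an immunoglobulin domain, are widely used to outline CA2. *Cacng5* encodes an auxiliary subunit of AMPA-type glutamate receptors, and *Cpne4* a copine, a protein that binds phospholipids in the presence of calcium. *Bok* belongs to the BCL-2 family of apoptosis regulators, *Iyd* encodes iodotyrosine deiodinase, which recycles iodide in the thyroid, and *Spock1* encodes the proteoglycan testican-1.

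In GRCm38, *Rgs14* (ENSMUSG00000052087) lies on chr13:55369732-55384687, plus strand, and *Spock1* (ENSMUSG00000056222) on chr13:57421195-57908332, minus strand. Both share the chromosome of *Dek* (chr13:47084775-47106201), at 8.264 and 10.315 Mb from it. *Amigo2* (ENSMUSG00000048218) lies on chr15:97244125-97247287, minus strand, *Cacng5* (ENSMUSG00000040373) on chr11:107874605-107915055, minus strand, and *Bok* (ENSMUSG00000026278) on chr1:93685660-93695764, plus strand. *Iyd* (ENSMUSG00000019762) lies on chr10:3540240-3554877, plus strand, and *Cpne4* (ENSMUSG00000032564) on chr9:104547286-105034544, plus strand. All 7 are annotated as protein-coding genes, and they come from 6 chromosomes.

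Values are in TPM, a unit that corrects for the length of the transcript and gives every library the same total. It keeps no read depth, so the counting error of a value is unknown. The listed genes of a library summed to between 825750 and 845553 TPM, and 18104 to 18719 of them had a value above 0. *Dek* itself lay between 44.2 and 51.9 TPM in the 6 WT libraries and between 5.55 and 9.25 TPM in the 6 *Dek* cKO libraries. The Y-linked genes went against the sex label in 2 libraries. Female *Dek* cKO replicate 3 held 72.7 TPM of *Eif2s3y* and 20.4 TPM of *Ddx3y*, as male libraries did, and male *Dek* cKO replicate 1 held 0.111 TPM of *Eif2s3y* with *Ddx3y* listed at 0. The 2 conflicts run in opposite directions, both within *Dek* cKO, and whether the 2 samples were exchanged was not tested. Samples keep their labelled groups here, so the female and the male comparison of genotypes each hold 1 library of conflicting sex. The differences, spreads and correlations of the markers are given with and without these libraries. Each library is 1 mouse, and p-values measure the spread between these mice.

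Of the markers, 6 were detected in all 12 libraries, at 2 tiers of abundance. *Cpne4* had the highest mean level, 77.9 TPM ± 11.05 (SD, n = 12), followed by *Rgs14* at 69.0 ± 9.14 and *Bok* at 51.4 ± 11.3. *Amigo2* (8.38 TPM ± 1.91), *Iyd* (6.46 ± 1.57) and *Cacng5* (5.27 ± 1.39) lay well below them. Within the upper tier the ranges over libraries overlapped, 55.3 to 88.6 TPM for *Rgs14*, 60.6 to 95.7 TPM for *Cpne4* and 40.1 to 73.3 TPM for *Bok*. The ranges of the lower tier overlapped as well, and reached no higher than 11.5 TPM. *Spock1* was listed at 0 in 10 of the 12 libraries, at 0.588 TPM in male WT replicate 2 and at 1.28 TPM in female *Dek* cKO replicate 1. These data therefore hold almost no *Spock1* signal with which to follow it as a marker. *Cacng8*, a relative of *Cacng5*, was listed at 0 in all 12 libraries. A listed 0 can be a failed estimate, and no fold change is given for *Spock1*.

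Whether the markers differed between genotypes was tested with limma on log2(TPM + 0.1) over 18197 genes, with p-values adjusted by the Benjamini-Hochberg method. All differences below are on that log2 scale, and passing means an adjusted p below 0.05 together with more than a 1.2-fold change. With both sexes together 0 of the 7 markers passed, against 0.148% of all genes tested (27 genes). At an unadjusted p under 0.05, *Amigo2* alone was lower in *Dek* cKO, and 1.8% of all genes were lower at that level. With all 12 libraries the 6 detected markers did not share a direction. The differences of *Amigo2*, *Cpne4* and *Iyd* were below 0, those of *Bok* and *Cacng5* above 0 and that of *Rgs14* close to 0, all with overlapping ranges. Without both libraries of conflicting sex the difference of each detected marker was below 0, and none passed. Both held *Dek* at *Dek* cKO levels (6.52 and 7.47 TPM), so the conflict concerns their sex label and not their genotype. They were among the 3 highest libraries for 5 and 3 of the 6 detected markers, so leaving them out took high values from *Dek* cKO only. The share of all genes below 0 was not counted in this setting. The median over all genes was then 0.02. In bulk tissue, fewer CA2 and CA3 neurons and less RNA of a marker per neuron cannot be told apart.

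**Figure D1:**
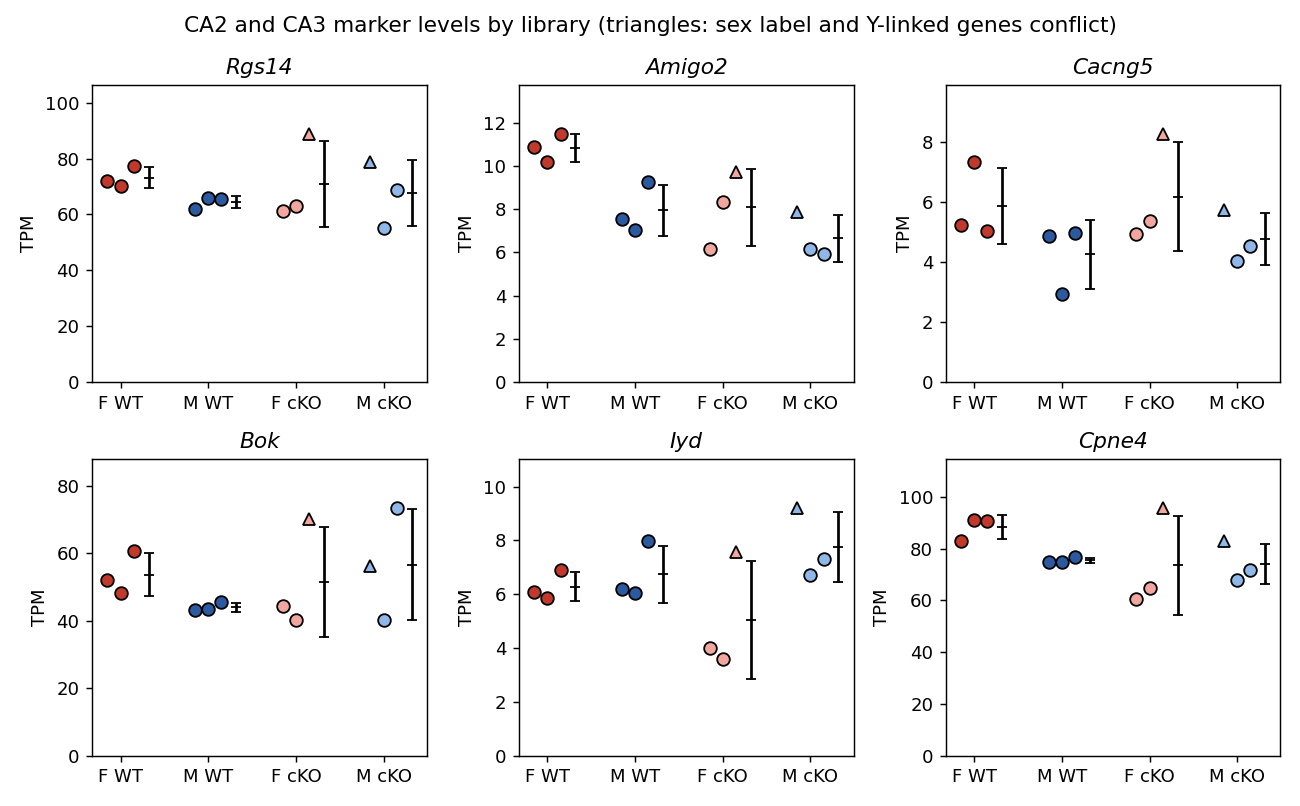
TPM of the 6 detected markers (vertical axes, starting at 0) in each library of the 4 groups (F, female, and M, male). Points are libraries, bars give the group mean ± SD, and triangles mark the 2 libraries whose Y-linked genes go against the sex label. The *Amigo2* values of the 3 female WT libraries all lie above those of the other 9, while in female *Dek* cKO the triangle lies above the other 2 libraries for every marker.

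*Amigo2* was the marker with the lowest p-value between genotypes. In female WT the 3 libraries held 10.9, 10.2 and 11.5 TPM, and in male WT 7.54, 7.02 and 9.28 TPM. In female *Dek* cKO they held 6.16, 8.35 and 9.73 TPM, and in male *Dek* cKO 7.89, 6.13 and 5.93 TPM. The female WT libraries were the 3 highest of the 12, and the WT and *Dek* cKO ranges overlapped because male WT lay within the *Dek* cKO range. The mean was 9.39 TPM ± 1.80 (SD, n = 6) in WT and 7.37 ± 1.54 (n = 6) in *Dek* cKO. The difference was -0.35 (95% confidence interval -0.68 to -0.02, SE 0.15), with an unadjusted p of 0.0406 and an adjusted p of 0.721 in limma. An exact two-sided permutation test over all splits of 6 against 6 libraries gave p = 0.0693. Neither test took sex into account. With the labelled sex as a covariate, limma gave the same difference with an SE of 0.12, an unadjusted p of 0.0146 and an adjusted p of 0.589. In limma the difference was -0.48 (adjusted p = 0.528) without both libraries of conflicting sex. It was -0.12 (limma adjusted p = 0.989) without the 3 female WT libraries whose names begin with C57. That last comparison sets *Dek* cKO of both sexes against male WT alone, so sex is not balanced between its genotypes.

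*Cpne4* held 83.0, 91.3 and 90.7 TPM in female WT and 75.0, 74.9 and 76.6 TPM in male WT. It held 60.6, 64.7 and 95.7 TPM in female *Dek* cKO and 82.8, 67.8 and 71.7 TPM in male *Dek* cKO. Of the 6 *Dek* cKO libraries, 4 lay below every WT library, and the 2 that did not were the 2 of conflicting sex. The mean was 81.9 TPM ± 7.62 in WT and 73.9 ± 13.1 in *Dek* cKO, a difference of -0.16 (95% confidence interval -0.38 to 0.06, limma adjusted p = 0.855). Without both libraries of conflicting sex the difference was -0.31, with an unadjusted p of 0.00186 and an adjusted p of 0.304. Without female *Dek* cKO replicates 1 and 2, left out together after the data were seen, it was -0.05 (adjusted p = 0.916).

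*Rgs14*, the other gene commonly used to outline CA2, showed almost no gap with all 12 libraries kept. Its libraries held 71.8, 70.1 and 77.3 TPM in female WT and 61.9, 65.9 and 65.4 TPM in male WT. They held 61.4, 62.9 and 88.6 TPM in female *Dek* cKO and 78.8, 55.3 and 68.7 TPM in male *Dek* cKO. The highest and the lowest of the 12 values were both from *Dek* cKO mice. The means were 68.7 TPM ± 5.50 in WT and 69.3 ± 12.4 in *Dek* cKO, and the difference was -0.003 (95% confidence interval -0.22 to 0.22, limma adjusted p = 0.999). Without both libraries of conflicting sex, which held 88.6 and 78.8 TPM, it was -0.15 (unadjusted p = 0.0705, limma adjusted p = 0.719).

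*Bok* held 52.1, 48.2 and 60.7 TPM in female WT and 43.0, 43.5 and 45.4 TPM in male WT, and 44.3, 40.1 and 70.0 TPM in female *Dek* cKO and 56.1, 40.4 and 73.3 TPM in male *Dek* cKO. The 2 highest and the 2 lowest values were all from *Dek* cKO mice. The difference between genotypes was 0.11 (95% confidence interval -0.23 to 0.45, limma adjusted p = 0.950). *Iyd* held 6.07, 5.88 and 6.90 TPM in female WT and 6.21, 6.06 and 7.97 TPM in male WT, and 3.99, 3.58 and 7.58 TPM in female *Dek* cKO and 9.20, 6.70 and 7.33 TPM in male *Dek* cKO. Female *Dek* cKO replicates 1 and 2 lay well below the other 10 libraries, and the difference between genotypes was -0.10 (-0.54 to 0.35, limma adjusted p = 0.978). *Cacng5* held 5.23, 7.33 and 5.04 TPM in female WT and 4.87, 2.94 and 4.97 TPM in male WT, and 4.94, 5.36 and 8.26 TPM in female *Dek* cKO and 5.75, 4.04 and 4.53 TPM in male *Dek* cKO. Its difference was 0.12 (-0.32 to 0.56, limma adjusted p = 0.966), within the spread of either genotype. Without both libraries of conflicting sex the difference was -0.061 for *Cacng5* and -0.017 for *Bok*, so the sign of neither was stable. That of *Iyd* was then -0.33 (limma adjusted p = 0.792).

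For 5 of the 6 detected markers the SD over libraries was larger in *Dek* cKO than in WT, though barely so for *Amigo2*. The SD of log2(TPM + 0.1) in *Dek* cKO was 3.28 times that in WT for *Iyd*, 2.20 times for *Rgs14*, 2.08 times for *Bok*, 1.85 times for *Cpne4* and 1.02 times for *Amigo2*. For *Cacng5* the ratio was 0.850. The ratio without both libraries of conflicting sex was 3.11 for *Iyd*, 2.20 for *Bok*, 1.13 for *Rgs14*, 0.800 for *Amigo2*, 0.774 for *Cpne4* and 0.412 for *Cacng5*, so that for 3 of the 6 the SD was then larger in *Dek* cKO. Over all genes tested the median ratio was 1.26, 67.1% of genes had the larger SD in *Dek* cKO, and 3823 genes had a ratio of at least 2, as *Iyd*, *Rgs14* and *Bok* did. The difference in spread was not tested.

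**Figure D2:**
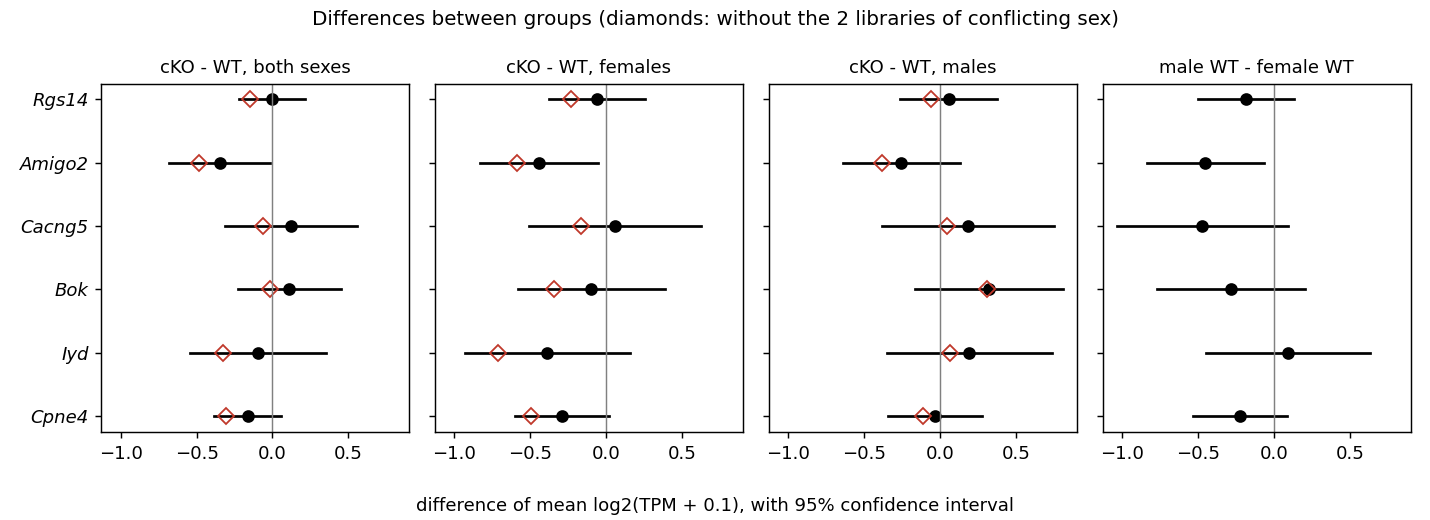
Difference of mean log2(TPM + 0.1) for the 6 detected markers in 4 comparisons (horizontal axes, with the groups given above each panel), with dots for all libraries of the comparison, lines for the 95% confidence interval from limma, and diamonds for the difference without the 2 libraries of conflicting sex. The intervals that do not reach 0 are those of *Amigo2* with both sexes together, in females and between WT sexes, and in females all 6 diamonds lie below 0.

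Among females, 0 markers passed (0.0165% of all genes did, 3 genes, and 1053 genes had an unadjusted p under 0.05). The prefix of the library names changes with genotype in this comparison, so genotype and prefix cannot be told apart. *Amigo2* was lower in each of the 3 *Dek* cKO libraries than in each of the 3 WT libraries, with means of 8.08 TPM ± 1.80 and 10.8 ± 0.651 (n = 3 each). Of all genes tested, 4.59% had *Dek* cKO values wholly below WT in females. The *Amigo2* difference was -0.44 (95% confidence interval -0.83 to -0.05), with an unadjusted p of 0.0291, reached in the lower direction by 1.88% of genes, and a limma adjusted p of 0.845. *Cpne4* differed by -0.29 (-0.60 to 0.02, limma adjusted p = 0.856) and *Iyd* by -0.39 (-0.93 to 0.15, limma adjusted p = 0.900). Each had 2 *Dek* cKO libraries below all female WT libraries and replicate 3, the library of conflicting sex, above them. *Rgs14*, *Bok* and *Cacng5* differed by -0.06, -0.10 and 0.06. Without both libraries of conflicting sex, which leaves 2 female *Dek* cKO libraries, limma gave -0.49 for *Cpne4* (unadjusted p = 2.21e-05, adjusted p = 0.0515), -0.72 for *Iyd* (adjusted p = 0.176) and -0.59 for *Amigo2* (adjusted p = 0.298), still short of the threshold. *Rgs14* (-0.23, unadjusted p = 0.0303, limma adjusted p = 0.502), *Bok* (-0.34) and *Cacng5* (-0.17) were then below 0 as well, as the plot of differences shows.

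The female comparison also held a difference in 6 genes of the thalamus and habenula (*Tcf7l2*, *Prkcd*, *Ramp3*, *Tnnt1*, *Slc17a6* and *Lef1*). They summed to 69.2 to 76.3 TPM in female *Dek* cKO and 48.3 to 58.6 TPM in female WT, so the sums did not overlap. None of the 6 was at 0 or passed, and 4 (*Tcf7l2*, *Ramp3*, *Tnnt1* and *Lef1*) were higher in each *Dek* cKO library than in each WT library, as 7.45% of all genes were. The part of these genes in the *Amigo2* difference was not tested.

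Those 2 female *Dek* cKO libraries, replicates 1 and 2, also stood apart in genes of the neocortex. The summed level of 5 neocortex markers (*Lamp5*, *Rorb*, *Cux2*, *Tbr1* and *Fezf2*) was 197 and 170 TPM in them and 86.0 to 126 TPM in the other 10. In both replicates *Lamp5*, *Cux2* and *Tbr1* lay above every WT library, while *Rorb* and *Fezf2* did not. Of the 6 thalamus and habenula genes, 5 also lay above every WT library in both. Of the 10 further CA3 markers, 4 (*Grik4*, *Nectin3*, *Npy2r* and *Ociad2*, named after their values were seen) lay below every WT library in both replicates. Of the rest, 1 (*Coch*) lay above every WT library in both, and the other 5 did neither. The share of all genes that did either was not counted, so these counts cannot be read as particular to any list. Without replicates 1 and 2, the 1 female *Dek* cKO library left was replicate 3, whose Y-linked genes go against its label. With that library assumed to vary as the other groups do, limma gave a difference of 0.12 for *Cpne4*, 0.27 for *Iyd*, 0.28 for *Rgs14* and 0.39 for *Bok*. The *Amigo2* difference was -0.15 (adjusted p = 0.914). The part of the neocortex markers in these differences was not tested beyond this.

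Among males, 0 markers passed (0.0165% of all genes, 3 genes, and 992 genes had an unadjusted p under 0.05). *Bok* differed by 0.32 (95% confidence interval -0.17 to 0.81, limma adjusted p = 0.901) and *Amigo2* by -0.25 (-0.64 to 0.13, adjusted p = 0.901). *Iyd*, *Cacng5*, *Rgs14* and *Cpne4* differed by 0.19, 0.18, 0.06 and -0.03. The ranges of *Dek* cKO and WT males overlapped for all 6. The difference without both libraries of conflicting sex was -0.38 for *Amigo2* (unadjusted p = 0.0435, limma adjusted p = 0.551), 0.31 for *Bok* (adjusted p = 0.660), -0.12 for *Cpne4* (adjusted p = 0.583), and 0.06, 0.04 and -0.062 for *Iyd*, *Cacng5* and *Rgs14*. Male *Dek* cKO replicate 3, with the highest *Bok* value of the 12 libraries, also held 1267 TPM of the astrocyte gene *Gfap*, against 208 to 437 TPM elsewhere, and the lowest sum of the CA1 markers (308 TPM). The part of these values in the *Bok* level was not tested.

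Whether the effect of genotype differed between the sexes was tested as the interaction term of the same fit. The female part of this term carries the change of library name prefix as well as that of genotype. It passed for 0 markers and for 0 genes in all (0.0%), with 770 genes at an unadjusted p under 0.05. *Iyd* had the widest gap, with a male minus female difference of the genotype effect of 0.58 (95% confidence interval -0.18 to 1.35), followed by *Bok* at 0.42 (-0.27 to 1.11) and *Cpne4* at 0.26 (-0.18 to 0.70). The limma adjusted p was 0.966 for each of these. The term, without both libraries of conflicting sex, stayed above 0 for all 6 detected markers, at 0.78 for *Iyd* (unadjusted p = 0.00611, limma adjusted p = 0.350), 0.65 for *Bok* (adjusted p = 0.580) and 0.38 for *Cpne4* (unadjusted p = 0.00168, adjusted p = 0.253). Its sign turned for all 6 when female *Dek* cKO replicates 1 and 2 were left out, which leaves as the only female *Dek* cKO library the one of conflicting sex.

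Between the sexes of WT mice, 5 of the 6 detected markers had lower values in each male library than in each female library, against 6.46% of all genes tested. These were *Rgs14* (64.4 TPM ± 2.19 in males and 73.1 ± 3.78 in females, n = 3 each), *Amigo2* (7.95 ± 1.19 and 10.8 ± 0.651), *Cacng5* (4.26 ± 1.14 and 5.87 ± 1.27), *Bok* (44.0 ± 1.26 and 53.7 ± 6.38) and *Cpne4* (75.5 ± 0.973 and 88.3 ± 4.62). *Iyd* values of the sexes overlapped. The male minus female differences were -0.18, -0.45, -0.47, -0.28 and -0.22 in that order. None passed, nor did any gene (0.0%), and 660 genes had an unadjusted p under 0.05. *Amigo2* had an unadjusted p of 0.0264, a level reached in the lower direction by 2.16% of genes, and a limma adjusted p of 1.00. The 5 markers come from the same 6 libraries and 3 pairs of them varied together, so they do not count as 5 separate observations. The 4 blood genes (*Hbb-bs*, *Hba-a1*, *Hba-a2* and *Alas2*) were also lower in each male WT library than in each female one, with sums of 654 to 862 TPM in males and 1016 to 1438 TPM in females, and their part in these values was not tested. The prefix of the library names changes with sex in this comparison, and the 2 cannot be told apart.

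The order of the 4 group means was not shared between the markers. Female WT had the highest mean of *Rgs14*, *Amigo2* and *Cpne4*, female *Dek* cKO that of *Cacng5*, and male *Dek* cKO that of *Bok* and *Iyd*. Male WT had the lowest mean of *Rgs14*, *Cacng5* and *Bok*, male *Dek* cKO that of *Amigo2*, and female *Dek* cKO that of *Iyd* and *Cpne4*. Neighbours in these orders overlapped, except that female WT lay wholly above female *Dek* cKO for *Amigo2* and wholly above male WT for *Cpne4*.

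Although the genotypes did not separate them, pairs of the markers varied together from library to library. Over the 12 libraries and 21 pairs of markers, *Rgs14* and *Cpne4* had a Pearson's r of 0.818 and a Spearman's rho of 0.825 (permutation p = 0.0011 and 0.0014, Benjamini-Hochberg adjusted over the pairs 0.019 and 0.0268). *Rgs14* and *Bok* followed with r = 0.789 and rho = 0.804 (permutation p = 0.0018 and 0.0025, adjusted 0.019 and 0.0268), and *Amigo2* and *Cpne4* with r = 0.767 and rho = 0.776 (permutation p = 0.0043 and 0.0044, adjusted 0.0304 and 0.031). These 3 pairs passed by both measures. Within WT the r values were 0.848, 0.960 and 0.834, and within *Dek* cKO 0.907, 0.772 and 0.689, in that order (n = 6 libraries each). *Rgs14*, *Bok*, *Amigo2* and *Cpne4* were each higher in every female WT library than in every male one. The r values within WT and over all libraries include that gap between groups, and the permutations did not keep the groups apart. With the 2 libraries farthest from the median of the first gene of the pair left out, r was 0.773, 0.666 and 0.750. It was, without both libraries of conflicting sex, 0.771, 0.698 and 0.793 (n = 10). Within *Dek* cKO that leaves 4 libraries, too few for a test, in which the r of *Rgs14* with *Cpne4* was 0.316 and that of *Amigo2* with *Cpne4* -0.283, so within *Dek* cKO both relations rested on those libraries, while that of *Rgs14* with *Bok* was 0.800.

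The other 12 pairs of detected markers had r between 0.102 and 0.608 and none passed (adjusted permutation p of at least 0.131 for Pearson's r and 0.0749 for Spearman's rho). *Iyd* had an r of 0.487 with *Rgs14*, 0.163 with *Amigo2* and 0.102 with *Cacng5*. Its r of 0.608 with *Cpne4* rested on female *Dek* cKO replicates 1 and 2, and was 0.0564 without them. All 15 pairs of detected markers had an r above 0, and the 6 pairs with *Spock1* rest on the 2 libraries in which it was listed above 0. Among the 14159 other genes that averaged 1 TPM or more, 0.318% had a higher r with *Rgs14* than *Cpne4* did, and 0.48% than *Bok* did. A higher r with *Cpne4* than that of *Amigo2* was held by 0.438%. For the pair with the lowest r, 39.5% had a higher r with *Cacng5* than *Iyd* did. The share of all gene pairs with an r above 0 was not counted.

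**Figure D3:**
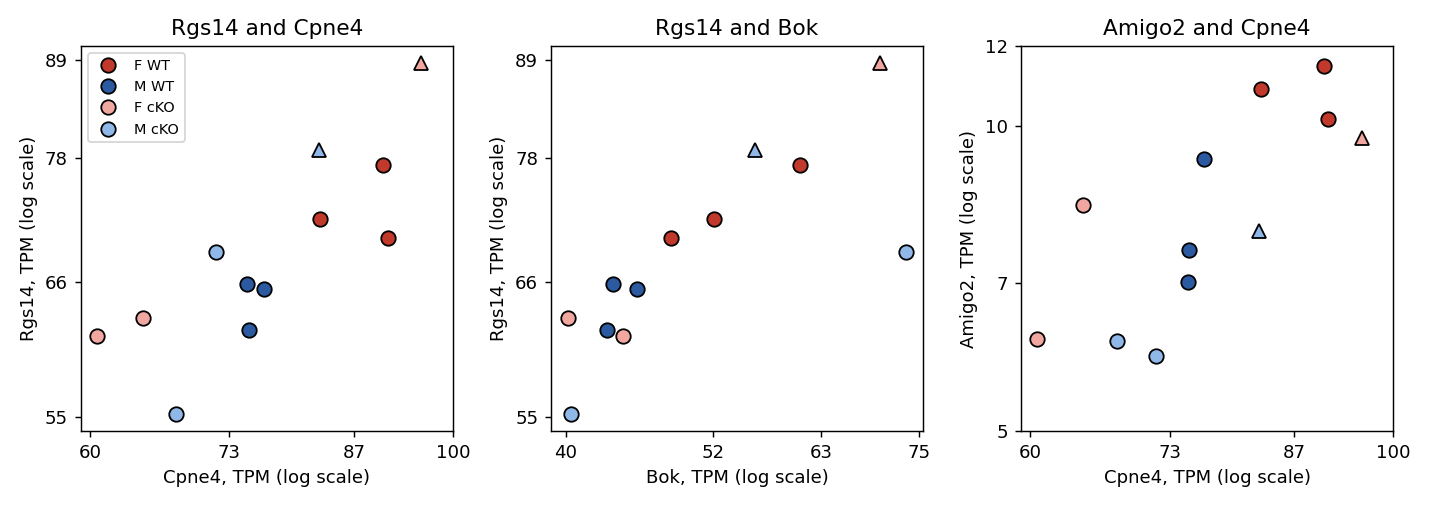
Levels of the 3 pairs of markers that varied together, in TPM on log scales on both axes, with 1 point per library and triangles for the 2 libraries of conflicting sex. The points rise together in each panel, with r of 0.818, 0.789 and 0.767 from left to right, and male *Dek* cKO replicate 3 lies to the right of the other points in the *Bok* panel at 73.3 TPM.

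The shared variation can be followed by library. Female *Dek* cKO replicate 3 was among the 3 highest libraries for 5 of the 6 detected markers and female WT replicate 3 for 4. Male *Dek* cKO replicate 2 was among the 3 lowest for 5 of 6, female *Dek* cKO replicate 1 for 4 and female *Dek* cKO replicate 2 for 3. The summed level of the markers ran from 180 TPM in male *Dek* cKO replicate 2 to 280 TPM in female *Dek* cKO replicate 3, and in WT from 199 to 252 TPM. Both ends of the scale were *Dek* cKO libraries. Female *Dek* cKO replicate 3, the highest, had the second lowest sum of CA1 markers (330 TPM) and the highest sum of dentate granule cell markers (254 TPM, against 153 to 228 TPM elsewhere).

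**Figure D4:**
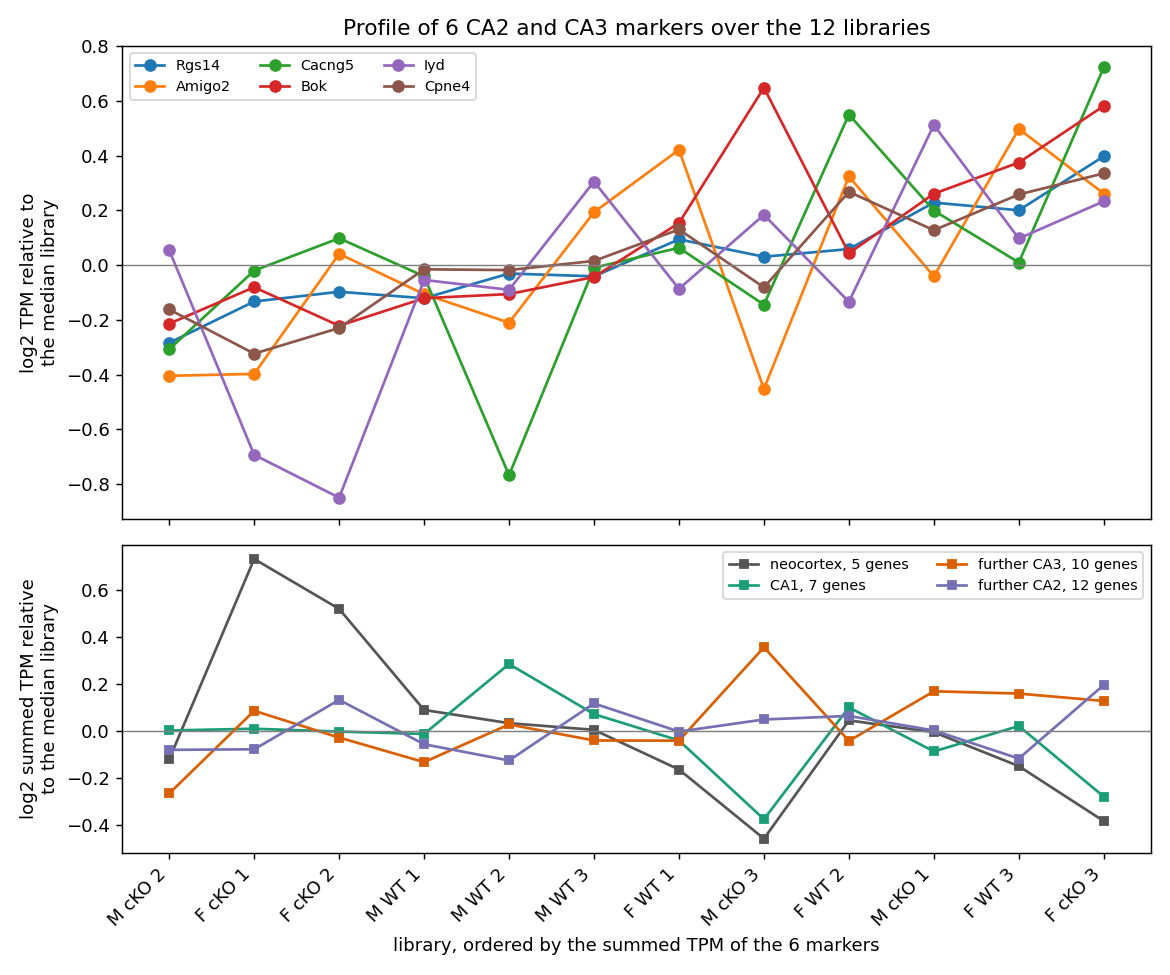
The upper panel gives log2 TPM of each of the 6 detected markers relative to its median library, and the lower panel the log2 summed TPM of the neocortex, CA1, further CA3 and further CA2 lists in the same way, with the 12 libraries in order of the summed TPM of the markers, from 180 to 280 TPM. The order follows *Cpne4*, *Rgs14* and *Bok*, which make up most of that sum, while *Iyd* is lowest in female *Dek* cKO replicates 1 and 2, and the neocortex sum is highest in those same libraries.

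The 7 markers of the neighbouring field CA1 summed to 308 to 403 TPM in *Dek* cKO and 389 to 488 TPM in WT, and none was at 0. With both sexes together 0 passed, and all 7 differences were below 0, as were those of 44.2% of all genes tested. The median of the 7 differences was -0.23, against 0.02 over all genes. The part of CA1 in the marker levels was not tested.

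Further genes known for the same fields did not pass in either direction. Of 12 further CA2 genes, all tested, 0 passed with both sexes together, 1 was higher at an unadjusted p under 0.05 (a level reached in the higher direction by 4.84% of all genes), and the median difference was 0.003, against 0.02 over all genes. The gene was *Ptpn5*, the striatum-enriched phosphatase STEP, at 72.7 TPM ± 6.45 in *Dek* cKO and 63.6 ± 4.92 in WT (difference 0.19, limma adjusted p = 0.593). The most abundant of the list were *Pcp4*, a calmodulin-binding protein (difference 0.12, adjusted p = 0.938), *Adora1*, the adenosine A1 receptor (0.003, adjusted p = 0.999), *Necab2* (-0.12, adjusted p = 0.871) and *Nr3c2*, the mineralocorticoid receptor (-0.01, adjusted p = 0.999). *Pcp4*, which like *Rgs14* and *Amigo2* is widely used to outline CA2, held 178 to 291 TPM in WT and 199 to 311 TPM in *Dek* cKO.

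Of 10 further CA3 genes, all tested, 0 passed, 1 was higher at an unadjusted p under 0.05, and the median difference was 0.03. The gene was *Col6a1*, a collagen chain, at 44.3 TPM ± 10.2 in *Dek* cKO and 30.7 ± 10.9 in WT (difference 0.57, limma adjusted p = 0.628). *Dkk3*, a secreted glycoprotein and the most abundant of the list, differed by 0.08 (adjusted p = 0.943), *Homer3*, a postsynaptic scaffold protein, by 0.04 (adjusted p = 0.995) and *Ociad2* by 0.02 (adjusted p = 0.995). Of 21 family relatives of the markers, such as other copines, TARP subunits and testicans, 20 were tested, 0 passed and 1 was lower at an unadjusted p under 0.05, with a median of -0.01. It was *Cpne8* (difference -0.19, limma adjusted p = 0.628). The most abundant relatives were *Cpne6* at 402 TPM ± 63.5 in *Dek* cKO and 458 ± 44.5 in WT (difference -0.20, adjusted p = 0.781), *Spock2* (-0.02, adjusted p = 0.990), *Cpne7* (-0.14, adjusted p = 0.917) and *Rgs10* (0.11, adjusted p = 0.907). *Spock2* averaged 322 TPM over the 12 libraries, whereas *Spock1* was at or near 0.

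The genes most like each detected marker over the 12 libraries, by Pearson's r of log2(TPM + 0.1) among genes that averaged 1 TPM or more, are given as a description. For *Rgs14* they were *Nell2* (r = 0.945), *Lrrc20* (0.936) and *Cnih2* (0.920). For *Cpne4* they were *Cnih2* (0.922), *Rerg* (0.887) and *Il16* (0.886), so that *Cnih2*, an AMPA receptor auxiliary subunit, was shared. For *Amigo2* they were *Trim36* (0.919), *Cfap97d2* (0.901) and *Clmn* (0.891), and for *Bok* *Cabp7* (0.931), *Sh3bp5* (0.921) and *Tmem158* (0.910). For *Cacng5* they were *Prkcd* (0.916), *Col6a3* (0.896) and *Srd5a1* (0.879), of which *Prkcd* was also in the list of thalamus and habenula genes. For *Iyd* they were *Tspan18* (0.906), *St5* (0.872) and *Gm12751* (0.859).

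The sequences before the start sites are shown for *Amigo2*, which had the lowest p-value between genotypes, for *Bok*, which varied with *Rgs14*, and for *Cacng5*, which belonged to none of the pairs that passed. The 250 bases upstream of the RefSeq start are given 5′ to 3′ on the strand of the gene, from RefSeq on GRCm38.p6, in which 6 of the 7 markers had an entry. The windows hold no annotated exon, and are chr15:97247288-97247537 (minus strand) for *Amigo2*, chr1:93685325-93685574 (plus strand) for *Bok* and chr11:107915056-107915305 (minus strand) for *Cacng5*. *Cacng5* has another RefSeq start further into the gene, whose window, chr11:107911363-107911612, held 0 GC boxes and 2 CpG dinucleotides. Capitals mark the GC box, GGGCGG or its reverse complement CCGCCC, as found by a search of both strands.
Amigo2: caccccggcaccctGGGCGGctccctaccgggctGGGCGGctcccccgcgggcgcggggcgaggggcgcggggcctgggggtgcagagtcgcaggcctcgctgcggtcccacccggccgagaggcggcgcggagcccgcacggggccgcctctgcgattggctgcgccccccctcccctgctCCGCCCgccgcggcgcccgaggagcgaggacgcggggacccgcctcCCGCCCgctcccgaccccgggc
Bok: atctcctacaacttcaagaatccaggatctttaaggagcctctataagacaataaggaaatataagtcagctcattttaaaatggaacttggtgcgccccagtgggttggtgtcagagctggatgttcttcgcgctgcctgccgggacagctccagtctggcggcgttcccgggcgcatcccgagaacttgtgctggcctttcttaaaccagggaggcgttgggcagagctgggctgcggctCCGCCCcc
Cacng5: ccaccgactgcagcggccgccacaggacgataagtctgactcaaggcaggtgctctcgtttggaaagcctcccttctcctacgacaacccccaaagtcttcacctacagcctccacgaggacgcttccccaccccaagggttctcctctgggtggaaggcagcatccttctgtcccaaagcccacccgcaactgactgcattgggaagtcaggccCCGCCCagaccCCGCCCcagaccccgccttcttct
The *Amigo2* window held 4 GC boxes and 38 CpG dinucleotides, more than 98.1% of 32851 promoter windows, and was 84.0% G and C. The *Bok* window held 1 GC box and 12 CpG, and the *Cacng5* window 2 GC boxes and 12 CpG, where the median over all windows was 6. The GC box occurs in 32.7% of all windows. None of these 3 windows held TATAAA (12.4% of all) or the cyclic AMP response element TGACGTCA (1.55% of all). These are matches of letters and say nothing of binding by a factor.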

How the data were processed

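Hippocampal RNA of 12 mice was sequenced, and the authors deposited 1 table of TPM per gene and library. The processing notes name kallisto, whereas the study's methods name STAR and Salmon, both with mm10 (GRCm38). No source says which made the table. Since TPM scales each library to a fixed total, of which the listed genes hold a part, read depth is lost and a count test could not be run.

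Groups follow the labels. Genes were matched by Ensembl identifier to GENCODE M21 (25245 of 26409). Tests used log2(TPM + 0.1) of the 18197 genes that averaged 0.1 TPM or more, with limma 3.58.1 in R 4.3.3 with a trended prior variance, as 2 groups of 6 libraries for both sexes together and as 4 groups of 3 otherwise. All 7 markers passed this filter, *Spock1* only through 2 libraries. Correlations used 100000 permutations drawn with numpy, two-sided, and the exact permutation tests used scipy 1.17.1. Tables used Python 3.11.15, pandas 2.3.3 and numpy 2.4.6. The fit was tested on simulated data.

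The markers and lists were chosen with earlier results of these data known. Named genes are the markers, list members with an unadjusted p under 0.05 in both sexes together, the 4 most abundant of each list, and the 3 genes most like each detected marker. Alternatives changed the pseudocount, filter, scaling, prior variance, libraries, covariate and blocking. Leaving out female *Dek* cKO replicates 1 and 2 together, and the correlations and spreads without both libraries of conflicting sex, were chosen after seeing the data. Replicate numbers did not pair the libraries (correlations of same-numbered libraries between -0.038 and 0.045).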

Additional observations from a re-analysis of the deposited data

Results flagged for a closer look

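*Spock1* had 1 library far from the rest of its genotype in both genotypes. In WT it was listed at 0.588 TPM in male WT replicate 2 and at 0 in the other 5 libraries, and in *Dek* cKO at 1.28 TPM in female *Dek* cKO replicate 1 and at 0 in the other 5. Chance alone marks about 1 group in 20 in this way, and with the rest of a group at 0 any value above 0 is marked.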

How the results depend on the processing

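Under each alternative 0 markers and 0 further CA2 or CA3 genes passed in any comparison. The lowest adjusted p for a marker was 0.304 with both sexes together, 0.0515 in females, 0.464 in males, 0.253 for the interaction and 0.963 between WT sexes. With the replicate block, *Amigo2* differed by -0.35 with an adjusted p of 0.724, 0 markers passed and 3 of the 27 genes called in all were left. TPM gives no read depth, and groups of 3 limit what can be seen. These values changed sign, and the cause was not tested. Without the libraries whose names begin with C57, which leaves *Dek* cKO of both sexes against male WT alone, *Rgs14* was 0.088. Without both libraries of conflicting sex, *Cacng5* was -0.061 and *Bok* -0.017 with both sexes together, *Cacng5* was -0.17 in females and *Rgs14* -0.062 in males. Without female *Dek* cKO replicates 1 and 2 together, *Rgs14* was 0.066 and *Iyd* 0.24 with both sexes, *Rgs14* 0.28, *Bok* 0.39, *Iyd* 0.27 and *Cpne4* 0.12 in females, and the interaction was -0.22 for *Rgs14*, -0.10 for *Amigo2*, -0.32 for *Cacng5*, -0.069 for *Bok*, -0.077 for *Iyd* and -0.15 for *Cpne4*. Leaving out each library in turn, *Rgs14* ran from -0.078 to 0.059 with both sexes, from -0.23 to 0.032 in females, from -0.062 to 0.19 in males and from -0.0005 to 0.29 for the interaction. *Cacng5* ran from -0.023 to 0.24, from -0.17 to 0.23, from -0.058 to 0.31 and from -0.12 to 0.35 in that order. *Iyd* ran from -0.22 to 0.052 with both sexes and from -0.031 to 0.16 between WT sexes, *Bok* from -0.34 to 0.060 in females and *Cpne4* from -0.12 to 0.029 in males. The r of *Amigo2* and *Iyd* ran from -0.0499 to 0.275 and that of *Cacng5* and *Iyd* from -0.0349 to 0.183, and the latter was -0.177 without both libraries of conflicting sex.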

Other observations

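Ratios between the detected markers were compared between genotypes, a comparison chosen after the data were seen. Of the 15 ratios between detected markers, 5 had an exact two-sided permutation p under 0.05 over the splits of 6 against 6 libraries, and all 5 had a Benjamini-Hochberg adjusted p of 0.0714 over the 15, so none passed. Each of the 5 holds *Amigo2* or *Cpne4*, so they do not count as 5 separate observations. The ratios were not tested without the C57-named libraries or those of conflicting sex. The ratio of *Amigo2* to *Cacng5* was 0.48 lower on the log2 scale in *Dek* cKO (exact permutation p = 0.0108), with 1.39 to 2.39 in WT and 1.18 to 1.56 in *Dek* cKO. The ratio of *Rgs14* to *Cpne4* was 0.16 higher (exact permutation p = 0.0152), with 0.768 to 0.880 in WT and 0.816 to 1.01 in *Dek* cKO. The ratio of *Rgs14* to *Amigo2*, the pair used to outline CA2, was 0.35 higher (exact permutation p = 0.0195), with 6.61 to 9.39 in WT and 7.53 to 11.6 in *Dek* cKO. The ranges of the genotypes overlapped for all 15 ratios.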
